A study of Mus musculus with 12 samples.

Results

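Marker genes of inhibitory interneurons, Gad1, Gad2, Slc32a1, Sst, Pvalb, Npy and Vip, were chosen by symbol from the 15584 rows of an RNA-seq table. The transcripts of these 7 genes were followed in samples of mouse corpus callosum. This tract of mostly myelinated axons connects the hemispheres of the cerebrum. The 12 libraries fell into 4 groups of 3: wild-type (WT) and AHR CKO mice, each without treatment (Ctrl, called control here) or with cuprizone (CPZ). The AHR CKO mice are described as lacking the aryl hydrocarbon receptor AHR, a ligand-activated transcription factor, in microglia, which are the brain's own macrophages. Cuprizone is a copper chelator that kills oligodendrocytes, so that the tract loses myelin. The sources used here do not give the driver of the deletion, the dose or duration of cuprizone, or the strain, age or sex of the mice. The labels do not state that libraries of 1 group were made from different mice, and the p-values therefore reflect only library-to-library spread, which may be technical. Values are FPKM, fragments of a transcript scaled to its length and to the fragments of the library. Levels of different genes can thus be set side by side per length, but only roughly. Changes between the genotypes moved with transcript length, as given below.

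Inhibitory neurons make and release the transmitter GABA. Gad1 and Gad2 encode the enzymes GAD67 and GAD65, which make GABA from glutamate, and Slc32a1 encodes the transporter that loads it into synaptic vesicles. These genes mark GABA neurons of every kind, including the projection neurons that make up most of the striatum below the tract. Sst, Pvalb and Vip name the main classes of cortical interneurons. Sst and Vip encode the neuropeptides somatostatin and vasoactive intestinal peptide, and Pvalb encodes the calcium buffer parvalbumin of fast-spiking cells. Npy encodes neuropeptide Y, which some Sst cells and other interneurons make. Most such cells lie in grey matter, and the white matter itself holds scattered neurons.

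All markers are protein-coding genes placed on GRCm38 by GENCODE M21. The genes of GABA synthesis and loading lie on chromosome 2: Gad1 at 70553072 to 70602014, Gad2 at 22622205 to 22693874 and Slc32a1 at 158610767 to 158615748, all on the plus strand. Gad1 overlaps the antisense gene Gad1os and Slc32a1 overlaps the antisense gene Gm14205. The sources used here do not say whether counting used the strand, so reads of these partners cannot be told apart. Sst lies on chromosome 16 at 23889573 to 23890958 and Pvalb on chromosome 15 at 78191114 to 78206400, both on the minus strand. Npy lies on chromosome 6 at 49822710 to 49829507 and Vip on chromosome 10 at 5639218 to 5647617, both on the plus strand. Annotated transcript lengths were 566 nt for Npy, 721 nt for Sst, 977 nt for Pvalb, 1530 nt for Vip, 2797 nt for Slc32a1, 3355 nt for Gad1 and 5744 nt for Gad2.

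Npy correlated with both Sst and Vip across the libraries, as given below, so the promoters of these peptide genes were searched for shared letters. The search covered the 250 bases before each RefSeq start site (GRCm38.p6) on both strands for the cyclic AMP response element TGACGTCA, bound by CREB, and for its shorter form TGACG or CGTCA, which TGACGTCA contains. The full element was in the Sst window and the shorter form in the Vip window. The 30 bases around each are printed 5′ to 3′ on the strand of the gene, with the motif in capitals. The Sst site is at chr16:23890874-23890903, minus strand, with the motif starting 48 bases before the start site, and the Vip site is at chr10:5639127-5639156, plus strand, 79 bases before it.
Sst: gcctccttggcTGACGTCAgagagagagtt
Vip: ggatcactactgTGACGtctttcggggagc
TGACGTCA was in 508 of 32851 windows of this length (1.55%) and TGACG or CGTCA in 5836 (17.77%). The windows of Gad1, Slc32a1, Npy and Pvalb held neither, and that of Gad2 held CGTCA once, 33 bases before its start site. These matches describe letters and do not show binding.

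The libraries held an estimated 11400000 to 14800000 fragments each, a rough figure from the steps between the lowest FPKM values. At that depth the lowest Vip value rested on about 126 fragments, and the lowest value of every other marker on 709 (Pvalb) to 3919 (Sst). Counting alone would then give a coefficient of variation of 8.89% for Vip at its lowest and 1.60% to 3.76% for the others, less than the spread of any marker over the 12 libraries. Libraries of 1 group correlated across genes with r between 0.972 and 0.993. Oligodendrocyte transcripts of the labelled tract were abundant, with Mbp, which encodes myelin basic protein, at 6000 to 10912 FPKM in the control libraries and 2053 to 3428 FPKM in the cuprizone libraries. Grey-matter transcripts were abundant as well: in the WT control libraries the cortical transporter gene Slc17a7 stood at 291 to 508 FPKM and the striatal gene Ppp1r1b at 301 to 1227. Ahr, the targeted gene, stood at 1.48 to 2.22 FPKM in the 6 WT and 1.41 to 2.57 in the 6 AHR CKO libraries, so the bulk level did not separate the genotypes. Cx3cr1, a receptor gene of microglia, stood at 22.6 to 69.4 FPKM in WT. In AHR CKO it stood at 1.05, 9.60 and 0.801 in control and at 1.16, 22.7 and 29.6 in cuprizone, so libraries of 1 AHR CKO group were not alike. The summed FPKM of 8 oligodendrocyte genes was lowest in WT cuprizone replicate 1 (3029). This library also had the lowest sum of 12 pan-neuronal genes (2424, against 2868 to 3972 elsewhere) and Ttr, a choroid plexus transcript, at 2919 FPKM.

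The tissue expressed all 7 markers in every library. Median FPKM over the 12 libraries was 729.6 for Sst, 275.6 for Npy, 128 for Gad1, 80.1 for Pvalb, 74.6 for Slc32a1, 36.7 for Gad2 and 12.2 for Vip. Only the neighbours Sst and Npy, and Gad2 and Vip, had ranges that did not overlap. Npy exceeded Gad1 in 11 of 12 libraries, Gad1 exceeded Pvalb in 11 and Slc32a1 exceeded Gad2 in 12. Pvalb and Slc32a1 could not be ordered, with Pvalb the higher in 7 of 12. Somatostatin thus had the highest level per length of these genes in all 12 libraries, at 418 to 1004 FPKM, and Vip the lowest, at 5.89 to 17.4. The ratio of Gad1 to Slc32a1 in FPKM stayed between 1.34 and 1.84, while that of Sst to Gad1 ran from 3.002 to 9.31.

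**Figure D1:**
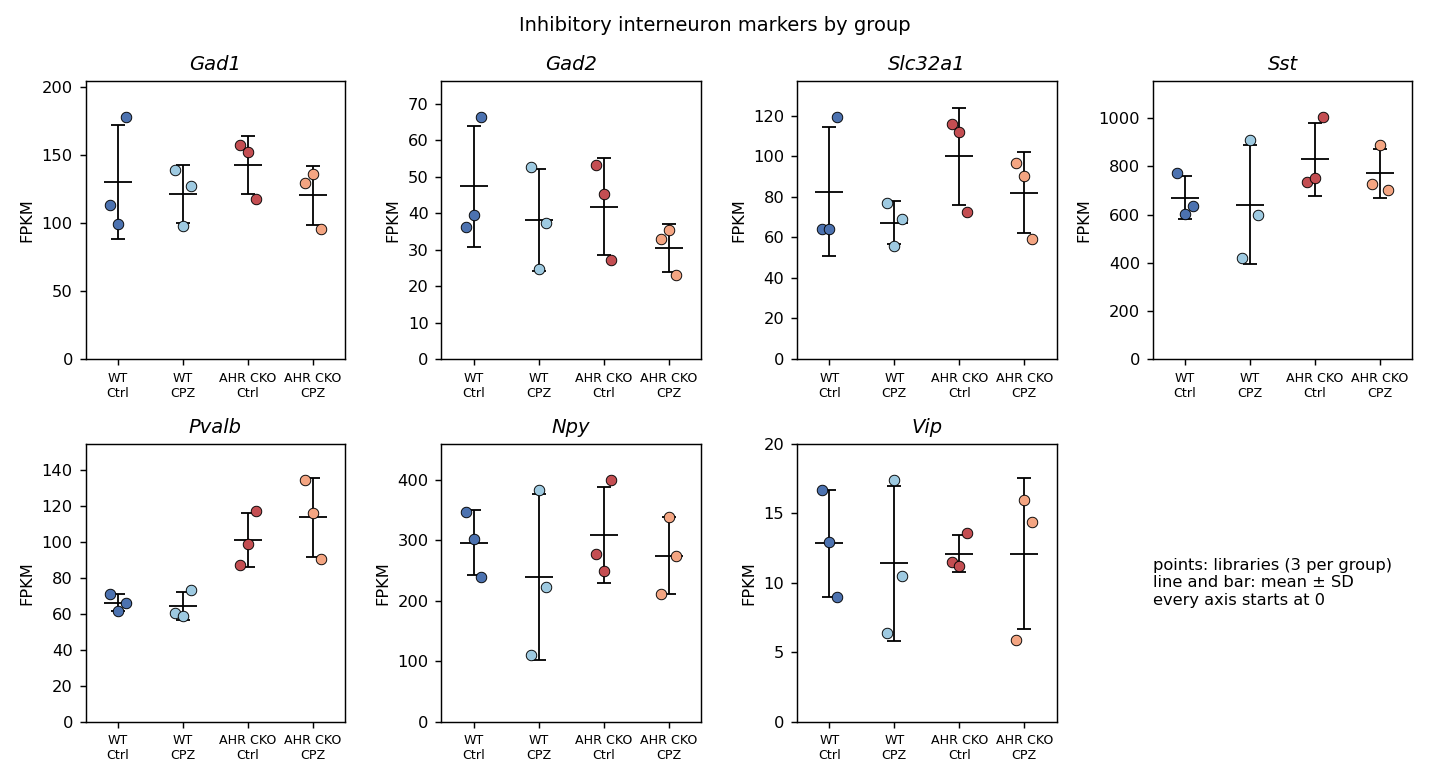
FPKM of each marker in WT and AHR CKO tissue of control and cuprizone mice, with 1 point per library and the mean ± SD of 3 libraries per group, every axis from 0. For Pvalb the 6 AHR CKO libraries (87.0 to 134) lie above the 6 WT libraries (59.0 to 73.1), and for the other markers the groups overlap.

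With cuprizone in WT, none of the 7 markers passed the test, while 16.9% of the 13759 genes tested did (limma on log2(FPKM + 1) over all 12 libraries, Benjamini-Hochberg adjusted p threshold 0.05, two-sided). No marker had an unadjusted p under 0.05, and their adjusted p ran from 0.425 to 0.872. None had groups that did not overlap, against 34.7% of all genes. The median log2 change of the markers was -0.22, beside -0.04 over all genes tested. In bulk tissue, fewer cells of a type and less RNA per cell cannot be told apart.

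Among the genes of GABA synthesis and loading, Gad1 stood at 113, 98.9 and 178 FPKM in WT control and at 139, 97.7 and 127 in WT cuprizone. The cuprizone values lay within the range of the controls apart from the lowest, and the log2 change was -0.07 (95% interval -0.54 to 0.40). Gad2 stood at 36.2, 39.5 and 66.3 FPKM in control and at 52.6, 24.6 and 37.2 in cuprizone, a log2 change of -0.32 (-0.995 to 0.36). Slc32a1 stood at 64.2, 64.2 and 119 FPKM in control and at 76.8, 55.9 and 69.1 in cuprizone, a log2 change of -0.24 (-0.81 to 0.33). In all of these genes control replicate 3 was the highest of the 6 WT libraries, and without it the changes of Gad1 and Slc32a1 turned to 0.18 and 0.05.

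The peptide and calcium-buffer markers overlapped as well. Sst stood at 771, 604 and 636 FPKM in WT control and at 418, 909 and 597 in WT cuprizone, so that the treated group held both the lowest and the highest of the 6 values (log2 change -0.13, 95% interval -0.64 to 0.39). Npy stood at 347, 302 and 239.5 FPKM in control and at 111, 384 and 222 in cuprizone (log2 change -0.47, -1.25 to 0.31). Vip stood at 16.6, 12.9 and 8.95 FPKM in control and at 6.36, 17.4 and 10.5 in cuprizone (log2 change -0.22, -1.003 to 0.57). WT cuprizone replicate 1 was the lowest and replicate 2 the highest of the 6 libraries for Sst, Npy and Vip. Without replicate 1 the changes were 0.14 for Sst, -0.0029 for Npy and 0.11 for Vip. Pvalb had the narrowest spread, at 70.8, 61.5 and 66.2 FPKM in control and 60.5, 59.0 and 73.1 in cuprizone (log2 change -0.05, -0.37 to 0.28).

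In AHR CKO mice cuprizone again gave no call among the 7 markers, against 10.2% of all genes, and no marker had an unadjusted p under 0.05 (limma, adjusted p 0.455 to 0.899). No marker had groups that did not overlap, against 28.9% of all genes. The median log2 change was -0.17, beside -0.01 over all genes. Gad1 stood at 158, 153 and 118 FPKM in control and at 129, 136 and 95.5 in cuprizone (log2 change -0.25, 95% interval -0.72 to 0.22). Gad2 stood at 53.1, 45.1 and 27.2 FPKM against 33.0, 35.3 and 22.9 (log2 change -0.42, -1.10 to 0.26). Slc32a1 stood at 116, 112 and 72.4 FPKM against 96.5, 90.5 and 59.4 (log2 change -0.28, -0.85 to 0.29). In both groups replicate 3 had the lowest value of these genes, and the groups overlapped through it.

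Sst stood at 733, 749.6 and 1004 FPKM in AHR CKO control and at 726, 889 and 700.4 in AHR CKO cuprizone (log2 change -0.10, 95% interval -0.61 to 0.42). Npy stood at 278, 249.6 and 399.8 FPKM against 211, 338 and 274 (log2 change -0.17, -0.95 to 0.61). Vip stood at 11.5, 11.2 and 13.6 FPKM against 5.89, 15.998 and 14.4 (log2 change -0.10, -0.89 to 0.68). Control replicate 3 was the highest control library for each of these peptides, and without it the changes of Sst and Npy turned to 0.05 and 0.03. Without cuprizone replicate 1, the lowest cuprizone library for Npy and Vip, they were 0.0076 for Npy and 0.31 for Vip. Pvalb was the only marker with a positive change, at 87.0, 98.7 and 117 FPKM in control and 134, 116 and 90.3 in cuprizone (log2 change 0.16, -0.16 to 0.48).

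The genotype by cuprizone interaction, which asks whether the effect of cuprizone differed between the genotypes, gave no call among the markers, and 0.0363% of all genes passed it (limma, adjusted p 0.817 to 0.989, none with an unadjusted p under 0.05). Averaged over the genotypes, cuprizone gave no call among the markers against 23.2% of all genes (adjusted p 0.255 to 0.742, none with an unadjusted p under 0.05).

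**Figure D2:**
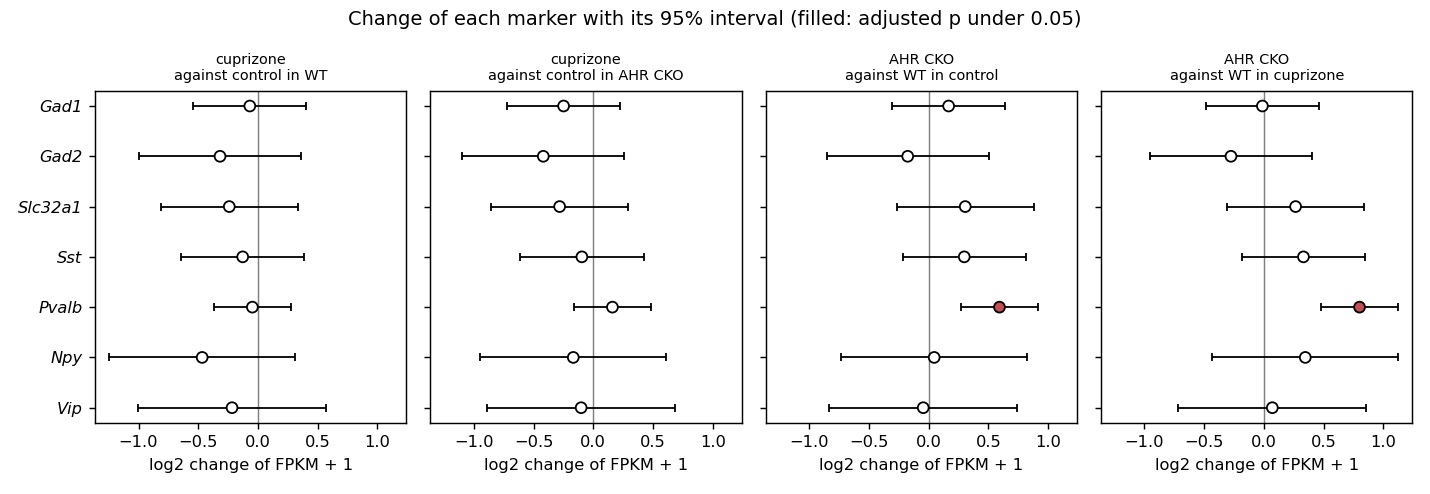
Log2 change of FPKM + 1 of each marker in 4 comparisons, as a point with its 95% interval, filled where the adjusted p was under 0.05. Only Pvalb in the comparisons of AHR CKO with WT is filled, at 0.59 in control and 0.80 in cuprizone tissue.

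Between the genotypes, Pvalb was the marker that differed, and it was higher in AHR CKO in both treatments. It rose from 66.2 ± 4.65 FPKM in WT control to 101 ± 15.1 in AHR CKO control (mean ± SD, n = 3), 1.52-fold, with a log2 change of 0.59 (95% interval 0.27 to 0.92, limma adjusted p = 0.0421). It rose from 64.2 ± 7.73 in WT cuprizone to 114 ± 22.1 in AHR CKO cuprizone, 1.77-fold, with a log2 change of 0.80 (0.48 to 1.12, adjusted p = 0.00749). Averaged over the treatments the log2 change was 0.70 (0.47 to 0.93, adjusted p = 0.00159). The lowest AHR CKO value, 87.0, was above the highest WT value, 73.1. The share of all genes whose genotypes lay apart over all 12 libraries is not given here. Whether Pvalb varied with Cx3cr1 among the AHR CKO libraries was not tested. One marker of 7 was called in each of these comparisons, beside 6.19% of all genes in control, 20.0% in cuprizone and 33.7% averaged over the treatments. One marker of 7 had groups that did not overlap in each treatment, beside 35.4% of all genes in control and 38.8% in cuprizone.

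The call in cuprizone and the averaged call held under every alternative run, with a largest adjusted p of 0.0354 and 0.0174. The call in control tissue did not. It ended with the pan-neuronal level as a covariate (log2 change 0.40, adjusted p = 0.138), with only the groups compared in the fit (0.0508), without a trend in the prior variance (0.0507), and on leaving out any 1 of 7 libraries: all 3 of WT control, replicate 3 of WT cuprizone, replicates 2 and 3 of untreated AHR CKO and replicate 2 of treated AHR CKO (largest adjusted p = 0.164). With sample quality weights 2 of the 7 markers were called in control, 5 in cuprizone and 4 averaged over the treatments. Of the 13759 genes tested, 4477, 8036 and 7866 were called there, so many genes passed with these weights.

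The other 6 markers did not pass between genotypes. In control tissue their adjusted p ran from 0.438 (Sst) to 0.951 (Vip), and in cuprizone tissue from 0.326 (Sst) to 0.973 (Gad1), with no unadjusted p under 0.05. Sst averaged 670 ± 88.8 FPKM in WT control and 829 ± 152 in AHR CKO control, and 641 ± 249 in WT cuprizone and 772 ± 102 in AHR CKO cuprizone. Without WT cuprizone replicate 2, in which Sst was highest among WT libraries, Sst passed in cuprizone tissue (log2 change 0.62, adjusted p = 0.0487) and averaged over the treatments (0.46, adjusted p = 0.0231). Gad2 averaged 47.3 ± 16.5 FPKM in WT control and 41.8 ± 13.3 in AHR CKO control, and 38.1 ± 14.0 and 30.4 ± 6.59 in the cuprizone groups. Vip averaged 12.8 ± 3.85 and 12.1 ± 1.32 FPKM in the control groups, and 11.4 ± 5.58 and 12.1 ± 5.43 in the cuprizone groups. These genes overlapped between the genotypes in both treatments. On leaving out WT cuprizone replicate 1, the genotype changes of Gad1, Npy and Vip in cuprizone tissue turned sign and did not pass.

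Transcript length moved with the genotype over the whole table, and the markers span that range. In cuprizone tissue, 26.9% of the 728 genes of up to 1000 nt were higher in AHR CKO and 1.37% lower, with a median log2 change of 0.35. Of the 783 genes over 8000 nt, 0.383% were higher and 46.1% lower, with a median of -0.38. In control tissue the medians of the same classes were 0.25 and -0.32. Length moved with cuprizone as well, averaged over the genotypes. Of the genes of up to 1000 nt, 21.2% were higher with cuprizone and 2.75% lower (median log2 change 0.12). Over 8000 nt, 3.70% were higher and 17.2% lower (median -0.15). Pvalb, Sst and Npy are in the shortest class. Gad2, at 5744 nt, is in the class over 4000 and up to 8000 nt. Between the genotypes the medians of that class were -0.16 in control and -0.18 in cuprizone tissue. After a smooth trend on length and GC content was taken out of each library, a correction added after the values were seen, Pvalb was higher by 0.54 in cuprizone tissue (adjusted p = 0.0325), by 0.49 averaged over the treatments (adjusted p = 0.00903) and by 0.44 in control tissue (adjusted p = 0.146). The call in control tissue thus ended with this correction.

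**Figure D3:**
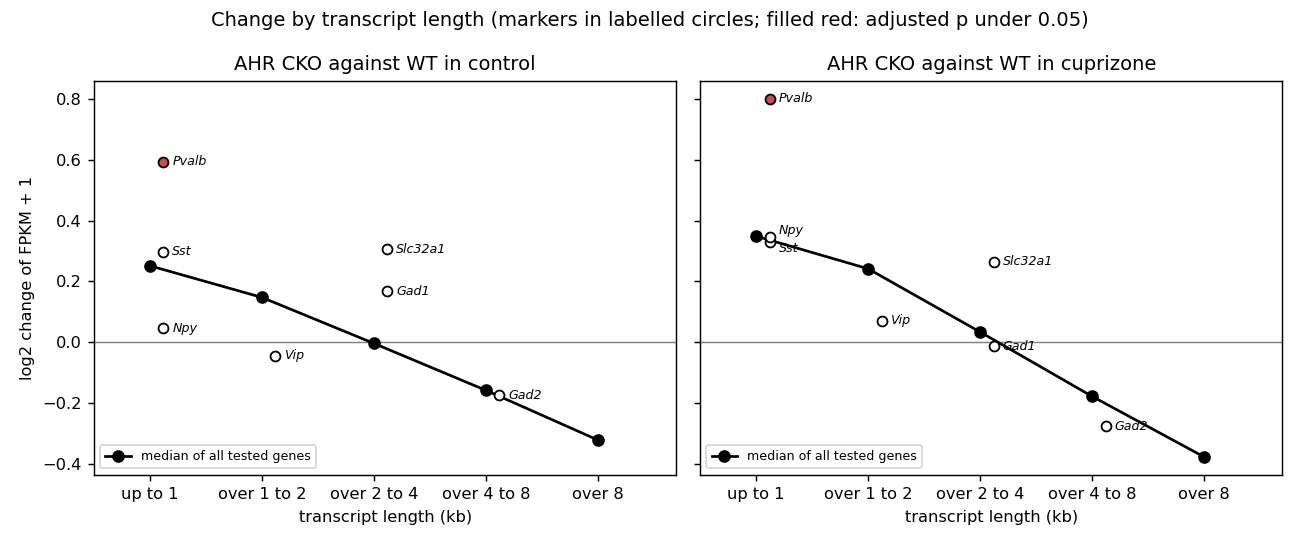
Median log2 change of all tested genes between AHR CKO and WT by class of transcript length (line), with the 7 markers as labelled circles placed in their class, filled where called. In both treatments the medians fall from the shortest to the longest class, from 0.25 to -0.32 in control and from 0.35 to -0.38 in cuprizone tissue, and Pvalb lies above the median of its class.

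Across the 12 libraries some pairs of markers varied together. Gad1 and Slc32a1 were the closest pair (Pearson r = 0.926, Spearman rho = 0.958, adjusted permutation p = 0.00084 and 0.00042), and r was 0.946 within the 6 WT and 0.976 within the 6 AHR CKO libraries. Gad1 and Gad2 gave r = 0.836 (rho = 0.811, adjusted p = 0.00731 and 0.0192). Gad2 and Slc32a1 gave r = 0.730 (rho = 0.692, adjusted p = 0.0375 and 0.0724), and r was 0.524 without the 2 farthest libraries. Among the peptides, Sst and Npy gave r = 0.890 (rho = 0.811, adjusted p = 0.00441 and 0.0192) and Npy and Vip gave r = 0.845 (rho = 0.881, adjusted p = 0.00238 and 0.00756). Without the 2 farthest libraries r was 0.660 for Sst and Npy and 0.816 for Npy and Vip. Of these peptides, Sst and Vip hold the promoter sites printed above and Npy holds none in its window. The correlation of Sst with Vip did not pass (r = 0.650, rho = 0.671, adjusted p = 0.0808 and 0.0792).

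The genes of GABA synthesis and loading did not follow the peptides: their r with Sst, Npy and Vip ran from -0.555 to -0.053, and none passed. Pvalb passed with no other marker (r from -0.284 to 0.521). In all 42 relations were computed, 21 between markers and 21 between markers and lists of neuronal genes, each with 100000 two-sided permutations and adjusted together, and 9 Pearson r had an adjusted p under 0.05. They were chosen after the values were seen, and the libraries share the groups.

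**Figure D4:**
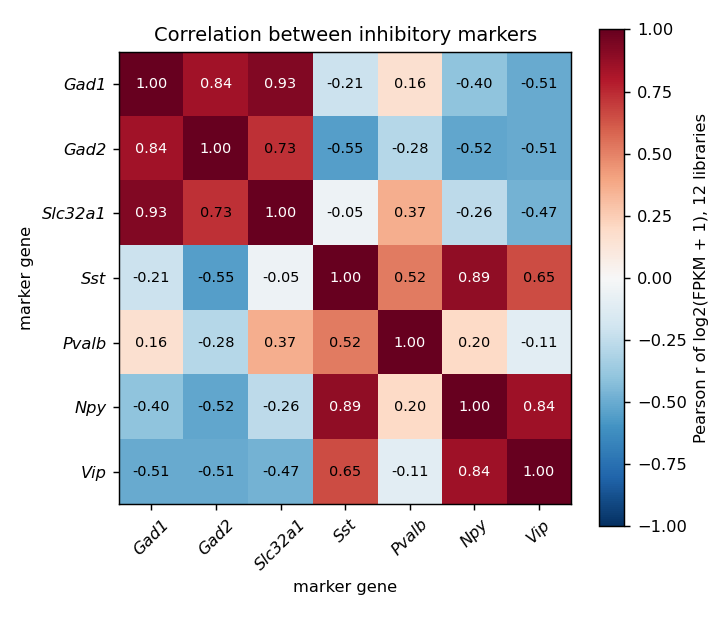
Pearson r between the 7 markers on log2(FPKM + 1) over 12 libraries, from -1 (blue) to 1 (red). Among Gad1, Gad2 and Slc32a1 r is 0.73 to 0.93. Among Sst, Npy and Vip it is 0.65 to 0.89, of which Sst with Vip did not pass, and for Pvalb it is at most 0.521.

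Some markers followed lists of neuronal genes of a region. A list of 14 genes of striatal projection neurons, among them the dopamine receptor genes Drd1 (as Drd1a) and Drd2, summed to between 536 FPKM in WT cuprizone replicate 2 and 3103 in WT control replicate 3, a 5.79-fold range. WT control replicates 1 and 2 were at 769 and 1152, so the spread was wide within 1 group. Slc32a1 followed the mean log2 level of this list (r = 0.903, rho = 0.853, adjusted permutation p = 0.00084 and 0.0120), with r = 0.861 without the 2 farthest libraries, 0.901 within WT and 0.957 within AHR CKO. Gad1 followed it too (r = 0.814, rho = 0.734, adjusted p = 0.00994 and 0.0463, and 0.652 without the 2 farthest). Gad2 did not pass (r = 0.670, rho = 0.510, adjusted p = 0.0742 and 0.196), although its r was 0.790 within WT and 0.974 within AHR CKO. The striatal genes themselves gave no call in any comparison within a genotype or a treatment, with medians of -0.92 and -0.45 for cuprizone in WT and AHR CKO and 0.26 and 0.58 for AHR CKO against WT in control and cuprizone tissue. WT control replicate 3, the highest of the 12 libraries in this list, was also the highest in Gad1, Gad2 and Slc32a1.

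A list of 13 genes of excitatory cortical neurons summed to between 1899 and 3342 FPKM. Vip followed it (r = 0.790, rho = 0.797, adjusted permutation p = 0.0115 and 0.0223, and 0.757 without the 2 farthest libraries). Npy gave r = 0.640 (rho = 0.769, adjusted p = 0.0808 and 0.0311) and Sst r = 0.585 (rho = 0.636, adjusted p = 0.125 and 0.105). Slc17a7, the vesicular glutamate transporter of cortical neurons, ran from 279 FPKM in WT cuprizone replicate 1 to 589 in AHR CKO control replicate 3. Those libraries were also the lowest and the highest for Npy and Sst. Sst followed the pan-neuronal list (r = 0.762, rho = 0.678, adjusted p = 0.0323 and 0.0783), but r fell to 0.261 without the 2 farthest libraries. That relation therefore depends on them. With them kept, r was 0.720 within WT and 0.754 within AHR CKO. Pvalb passed with none of these lists (r = 0.330, -0.024 and 0.593 for the striatal, cortical and pan-neuronal lists). With the mean of each group taken out, its r was 0.145, 0.093 and 0.757 in that order, which was not tested. For the pan-neuronal list the r of Pvalb was 0.494 within WT, 0.396 within AHR CKO and 0.382 without the 2 farthest libraries. Over the 12 libraries its adjusted permutation p with that list was 0.121. Sst gave 0.766 with the same list when the group means were taken out. The part of dissection in these values was not tested.

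**Figure D5:**
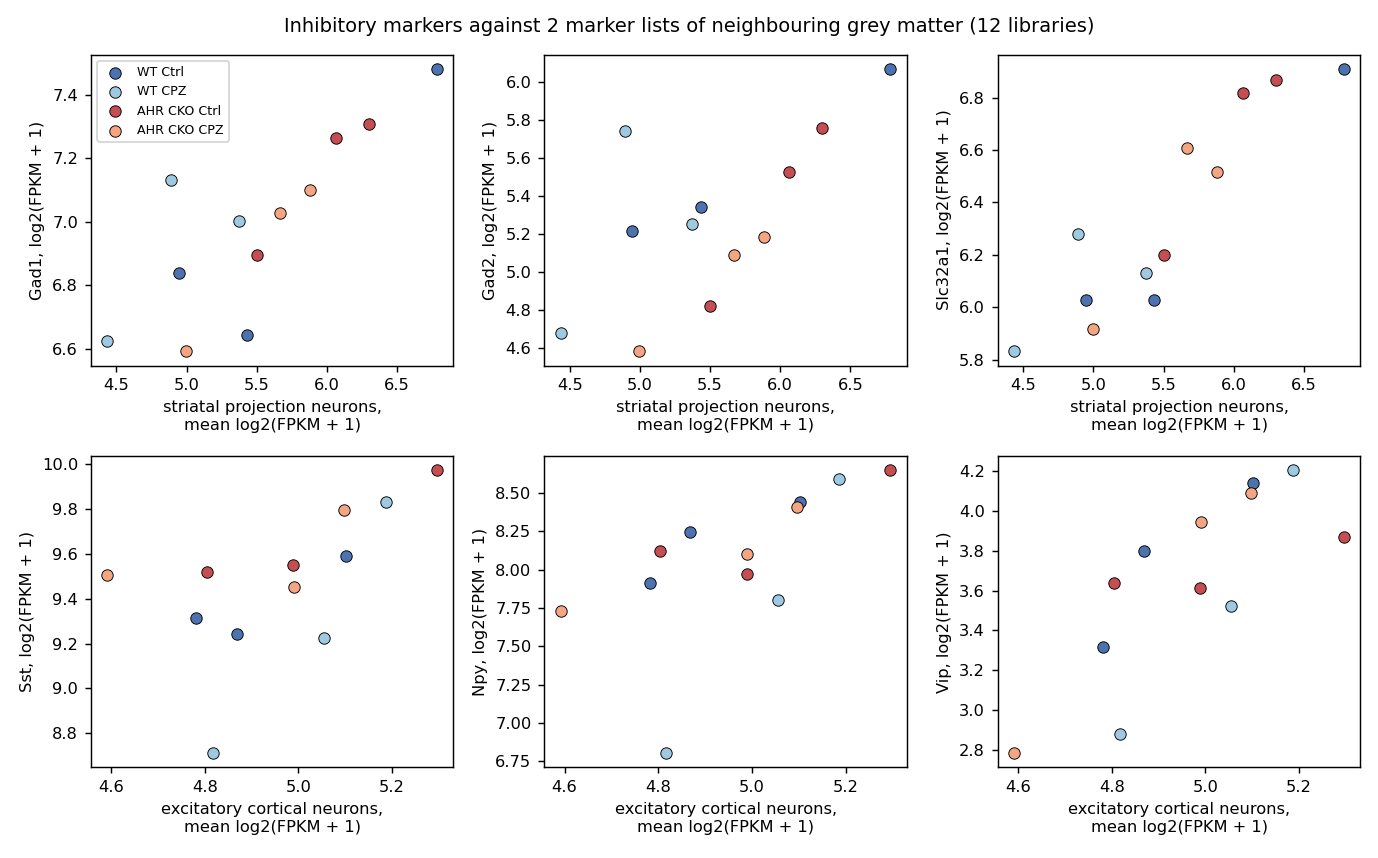
Log2(FPKM + 1) of Gad1, Gad2 and Slc32a1 against the mean log2 level of 14 striatal genes (top), and of Sst, Npy and Vip against that of 13 cortical excitatory genes (bottom), 1 point per library coloured by group. Over the 12 libraries Slc32a1 (r = 0.903) and Vip (r = 0.790) are higher where the list is higher, and libraries of 1 group lie far apart on the striatal axis.

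Genes other than the 7 markers whose levels most resembled each marker were named by Pearson r over the 12 libraries, as a description. For Gad1 they were Slc5a7, the choline transporter of cholinergic neurons (r = 0.951), Rhbdl3 (0.938) and Sertad4 (0.936). For Gad2 they were Cntnap2 (0.948), Htr1b, a serotonin receptor (0.938), and Galnt13 (0.933), and for Slc32a1 they were Pbx3 (0.964), B3gnt2 (0.948) and Sertad4 (0.946). Against the mean of the 3 genes, Slc5a7 (0.958), Pbx3 (0.955), Sertad4 (0.938), Ankrd63 (0.937) and Thsd7a (0.932) came first. Slc5a7, which is also on the list of septal and cholinergic neurons, was low, at 1.19 to 8.14 FPKM. For Sst they were Syt5, a synaptotagmin (0.964), Ttc7b (0.963) and Dact3 (0.960). For Npy they were Tmem132a (0.964), Ttc9b (0.963) and Vps9d1 (0.958), and for Vip they were Stx1a, a syntaxin of the presynaptic membrane (0.922), Dtl (0.917) and Cep170b (0.909). For Pvalb they were Tceal3 (0.977), Eif3d, a subunit of a translation initiation factor (0.975), and Cbr1, a carbonyl reductase (0.973).

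Other genes of the interneuron lineage were measured beside the markers. Of 16 transcription factors and developmental genes, 1 was higher and none lower with cuprizone in WT, and none passed in AHR CKO. Between genotypes, none was higher and 1 lower in control tissue, and none was higher and 2 lower in cuprizone tissue. The medians were -0.09, -0.15, 0.03 and -0.0028 on the log2 scale in that order. Of all genes tested, 16.9%, 10.2%, 6.19% and 20.0% were called in the same order, the shares to set beside each list count below. Lhx6, which marks Sst and Pvalb interneurons from their origin, passed in no comparison and stood at 5.41 to 8.27 FPKM in the 12 libraries. Sox6, which acts downstream of Lhx6 and is also expressed in oligodendrocyte precursors, fell from 4.60 ± 0.184 FPKM in WT control to 2.77 ± 0.449 in AHR CKO control (log2 change -0.58, adjusted p = 0.0412). That call ended under 12 of 23 alternatives, among them the length and GC correction (largest adjusted p = 0.193), and Sox6 is 8668 nt long. Maf, also expressed by microglia, was at 3.98 ± 0.486 FPKM in WT control and rose to 5.84 ± 0.654 in WT cuprizone (log2 change 0.46, adjusted p = 0.0383, lost under 9 of 23 alternatives). Beside it, 3 of 6 microglial genes rose and none fell (median 1.40), and their part in the Maf value was not tested. In cuprizone tissue Maf was lower in AHR CKO, at 4.11 ± 0.856 FPKM (-0.43, adjusted p = 0.0449, lost under 15 of 23 alternatives), where 2 of 6 microglial genes were lower as well. The other lower gene was Prox1, a transcription factor of caudally derived interneurons (-0.93, adjusted p = 0.0311, lost under 7 of 24). Prox1 stood at 8.73, 2.71 and 6.83 FPKM in WT cuprizone and at 2.07, 2.59 and 2.73 in AHR CKO cuprizone. These groups overlapped. In the same WT libraries 6 genes of hippocampal neurons summed to 103, 38.3 and 72.4 FPKM, against 47.0 to 71.8 in AHR CKO cuprizone. Their part in the Prox1 value was not tested.

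Of 22 other interneuron markers 21 were tested. None passed with cuprizone in either genotype, and between genotypes 1 was lower in control and 2 in cuprizone tissue, none higher, with medians of 0.05 and 0.04. Between genotypes 6.19% of all genes passed in control and 20.0% in cuprizone tissue. The highest, Cck, a peptide of interneurons and of many cortical excitatory cells, averaged 404 ± 97.3 FPKM in WT control and 594 ± 202 in AHR CKO control. Erbb4, the neuregulin receptor enriched in Pvalb interneurons, went the other way from Pvalb. It stood at 3.92, 3.82 and 3.53 FPKM in WT control and at 2.29, 1.61 and 0.826 in AHR CKO control, and at 2.22, 2.30 and 2.69 in WT cuprizone and 0.673, 0.779 and 0.858 in AHR CKO cuprizone. The genotypes did not overlap in either treatment, with log2 changes of -0.93 (adjusted p = 0.0284) and -0.94 (adjusted p = 0.00797). Of all genes, 35.4% in control and 38.8% in cuprizone tissue had genotypes that did not overlap. The Erbb4 values in AHR CKO cuprizone were all below 1 FPKM.

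Nos1, the neuronal nitric oxide synthase of a class of long-range Sst and Npy cells, stood at 4.38, 3.12 and 4.04 FPKM in WT cuprizone and at 0.767, 1.62 and 1.42 in AHR CKO cuprizone. The groups did not overlap, as for 38.8% of all genes, and Nos1 fell by 1.11 on the log2 scale (adjusted p = 0.0129). In control tissue Nos1 stood at 4.46 ± 0.747 FPKM in WT and 2.55 ± 1.24 in AHR CKO, which did not pass (adjusted p = 0.104). Erbb4 and Nos1 have transcripts over 8000 nt, the class in which 46.1% of genes were lower. With the length and GC correction the calls of Erbb4 ended (adjusted p = 0.143 in control and 0.0850 in cuprizone tissue) and that of Nos1 did not (adjusted p = 0.0473). In control tissue the Erbb4 call ended under 8 of 23 alternatives in all. The Nos1 call ended with the pan-neuronal covariate and without AHR CKO cuprizone replicate 1 (largest adjusted p = 0.0585).

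Of 6 genes that take up or break down GABA, none passed with cuprizone in WT and 1 fell in AHR CKO, none passed between genotypes in control tissue and 1 was higher in cuprizone tissue. The shares of all genes were 16.9%, 10.2%, 6.19% and 20.0% in that order. Aldh5a1, which oxidises succinic semialdehyde at the end of GABA breakdown, fell with cuprizone in AHR CKO from 23.4 ± 3.18 to 17.1 ± 0.816 FPKM (log2 change -0.42, adjusted p = 0.0274, lost under 7 of 24 alternatives). Slc6a13, a GABA transporter of the meninges and vessels, was higher in AHR CKO cuprizone (3.39 ± 1.40) than in WT cuprizone tissue (1.39 ± 0.170 FPKM, log2 change 0.83, adjusted p = 0.0294, lost under 7 of 23 alternatives). Beside it, 2 of 6 genes of meninges and fibroblasts were higher and none lower in the same comparison, with sums of 15.3 to 51.6 FPKM in WT and 28.0 to 59.9 in AHR CKO cuprizone, and their part in that call was not tested.

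Of 19 receptor, scaffold and chloride transporter genes of inhibitory synapses, none was higher and 4 were lower with cuprizone in WT (median -0.26), and none was higher and 2 lower in AHR CKO (-0.29). Between genotypes none passed in control tissue (-0.13), and 1 was higher and 3 lower in cuprizone tissue (-0.25). Over all genes 16.9%, 10.2%, 6.19% and 20.0% were called in these comparisons, so the counts of this list are not set apart from those shares. Slc12a2, the chloride importer NKCC1, which is also expressed by glia, fell with cuprizone in WT from 53.6 ± 12.7 to 26.0 ± 0.574 FPKM (log2 change -0.99, adjusted p = 0.000908) and in AHR CKO from 35.1 ± 4.97 to 21.3 ± 2.68 (-0.69, adjusted p = 0.0152). The WT call held under all 24 alternatives, and the AHR CKO call ended on leaving out replicate 1 or 2 of its untreated group or replicate 2 of its treated group (largest adjusted p = 0.0720). Beside it, all 8 oligodendrocyte genes fell in WT and 7 of 8 in AHR CKO, and their part in the fall of Slc12a2 was not tested.

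Gabrd, which encodes the delta subunit of extrasynaptic GABA-A receptors, fell with cuprizone in WT from 44.6 ± 14.3 to 24.1 ± 4.42 FPKM (log2 change -0.83, adjusted p = 0.00998, lost with the pan-neuronal covariate at 0.0699). Gphn, the scaffold gephyrin, fell from 28.0 ± 2.23 to 21.3 ± 3.57 (-0.39, adjusted p = 0.0333, lost under 7 of 24 alternatives). Gabrb2, a beta subunit, fell from 39.0 ± 5.78 to 29.1 ± 1.60 (-0.40, adjusted p = 0.0451, lost under 14 of 24). In cuprizone tissue Gabrb1, another beta subunit, was lower in AHR CKO (5.89 ± 0.374) than in WT (14.2 ± 1.72 FPKM, log2 change -1.13, adjusted p = 0.00377) under all 24 alternatives, as was Sstr4 below. Gabbr2, a GABA-B receptor subunit, and Gabra2, an alpha subunit, were lower at 26.6 ± 4.91 against 39.3 ± 4.63 and 7.51 ± 1.25 against 13.8 ± 3.88 FPKM (adjusted p = 0.0169 and 0.0234, lost under 4 and 7 of 24 alternatives, among them the length and GC correction for both). Gabrd was the gene that was higher, at 45.9 ± 6.19 against 24.1 ± 4.42 FPKM (0.91, adjusted p = 0.0115), a call that ended with that correction (adjusted p = 0.0738).

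Of 10 receptor genes for somatostatin, neuropeptide Y and vasoactive intestinal peptide, 8 were tested, and none passed with cuprizone in either genotype or between genotypes in control tissue. In cuprizone tissue 1 was lower in AHR CKO and none higher, beside 20.0% of all genes called. Sstr4, a somatostatin receptor, stood at 15.4 ± 1.14 FPKM in WT and 5.41 ± 1.12 in AHR CKO cuprizone (log2 change -1.37, adjusted p = 0.00367). Its transcript is 1424 nt long, and the call held with the length and GC correction (adjusted p = 0.00359). The peptide itself, Sst, was not called in that comparison.

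Other neurons and neighbouring tissue were set beside these values. Of 12 pan-neuronal genes none passed with cuprizone in either genotype, none passed between genotypes in control tissue, and 1 was higher and 1 lower in cuprizone tissue. Snap25, a presynaptic protein gene, stood at 1056 to 1187 FPKM in WT control and 643 to 997 in WT cuprizone (adjusted p = 0.132). Relative to the mean log2 level of the pan-neuronal list, Pvalb lay at -1.45 to -1.37 in WT control and -1.49 to -1.18 in WT cuprizone. In AHR CKO it lay at -1.01 to -0.86 in control and -0.83 to -0.42 in cuprizone. The genotypes thus did not overlap on that scale either, for which no share over all genes was computed. The 8 choroid plexus genes summed to 43.7 to 156 FPKM in WT control, 58.0 to 2997 in WT cuprizone, 416 to 3597 in AHR CKO control and 1011 to 3746 in AHR CKO cuprizone, with none at 0. In control tissue these sums did not overlap between the genotypes, with AHR CKO above WT as for Pvalb. Nor did those of 6 genes of meninges and fibroblasts, at 14.5 to 20.6 FPKM in WT and 31.9 to 68.6 in AHR CKO, of which 3 were higher and none lower. In cuprizone tissue 8 ependymal genes summed to 32.1 to 67.9 FPKM in WT and 72.3 to 87.8 in AHR CKO, with 3 higher and none lower. The 8 oligodendrocyte genes there summed to 3029 to 3641 and 4053 to 4960 FPKM, with 2 higher and none lower. No gene of these lists was at 0 in any library, and the part of these lists in the Pvalb result was not tested.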

How the data were processed

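RNA of corpus callosum from 12 samples was made into libraries with the SMARTER mRNA-Seq kit that the labels' protocols name. The authors deposited 1 table of FPKM values per gene, and the submitters' processing notes name the build GRCm38 (mm10). The aligner and the quantification tool are not stated in any label or header used for this text, and raw counts were not analysed here. FPKM fixes each library's scale, so a few abundant transcripts can shift all others.

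From these values log2(FPKM + 1) was fitted with limma 3.58.1 (R 4.3.3, trend in the prior variance) over all 12 libraries and 4 groups, on the 13759 genes with at least 1 FPKM in 3 or more libraries; all 7 markers passed. Two-sided p-values were adjusted by the Benjamini-Hochberg method over all genes tested, with a threshold of 0.05, in 7 comparisons. An exact test of 3 against 3 cannot go below p = 0.1, so none was used. The fit was also run on simulated data, and its outcome is not reported here. Lengths and positions came from GENCODE M21 and promoters from RefSeq.

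The markers and 19 gene lists (180 of 181 symbols found, 2 under older names) were chosen with earlier results of these data known. List genes were named by smallest adjusted p, at most 4 per list and comparison, or the 2 of highest mean FPKM where none passed. Lhx6 and the genes that describe the tissue were named after their values were seen. The correlations, length classes, length and GC correction, promoter search and depth estimate were chosen after the values were seen. The depth estimate (11400000 to 14800000 fragments) rests on 16 to 63 low genes per library, of whose values 69.0% to 81.0% lay within 0.2 of a whole fragment, against 40% by chance, so it is approximate. Alternatives covered the pseudocount, filters, scaling, the model, covariates and leaving out each library. Some genes of the lists are counted but not reported by name here.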

Additional observations from a re-analysis of the deposited data

How the results depend on the processing

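Of the 46 marker changes that were not called, none changed sign with another pseudocount or with median-of-ratios scaling. Another filter, the replicate block, an untrended prior variance and only the groups compared (26 changes there) leave the log2 changes as they are. No sign could change under those settings, so they do not test the direction. Signs changed in 19 with the pan-neuronal covariate, 12 with the length and GC correction, 9 with sample quality weights (8 others became called), 5 each with quantile normalization and rescaling to a common total, and 1 to 14 on leaving out a library, most without WT cuprizone replicate 1. The cause was not tested.

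Genes called numbered 2324 and 1403 for cuprizone in WT and AHR CKO, 851 and 2747 for AHR CKO against WT in control and cuprizone, 5 for the interaction, and 3198 and 4630 for the averaged cuprizone and genotype effects. With quality weights they were 5100, 4846, 4477, 8036, 2556, 5911 and 7866, with 2, 5 and 4 markers called in the control, cuprizone and averaged genotype comparisons; the log2 change with cuprizone was then 0.1403 for Gad1 and 0.0922 for Pvalb in WT, and 0.1706 for Sst, 0.2821 for Npy and 0.3660 for Vip in AHR CKO. With the pan-neuronal covariate the genotype counts were 21, 1036 and 1470 (control, cuprizone, averaged), and the cuprizone changes were 0.2505 for Sst, 0.1804 for Pvalb, 0.0046 for Npy and 0.0228 for Vip in WT and 0.2925, 0.3160 and 0.1442 for Sst, Npy and Vip in AHR CKO. With the length and GC correction, added after the data were seen, the genotype counts were 48, 821 and 1360, the interaction gave 11, and Pvalb with cuprizone in AHR CKO was -0.0629. With only the groups compared the genotype counts were 127 in control and 1070 in cuprizone. Without a filter the interaction gave 1, and without a trend in the prior variance 2. With a mean of at least 5 FPKM, 901 genes were called for cuprizone in AHR CKO. Quantile normalization gave 0.0476 for Pvalb with cuprizone in WT. In control tissue 0 markers were called without the trend, with the covariate, with only the groups compared and with the length and GC correction.

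The replicate numbers did not pair the samples (3 of 18 same-numbered pairs correlated above 0.1). With the replicate block, 51 and 1806 genes were called between genotypes in control and cuprizone and 0 for the interaction, and 0 markers in control (Pvalb adjusted p = 0.0836 by limma).

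Leaving out each library gave 1594 to 2439, 840 to 1553, 4 to 1428, 777 to 3305, 0 to 103, 2528 to 3361 and 3397 to 4965 genes in the order above, and 0 to 1, 1 to 2 and 1 to 2 markers between genotypes in control, cuprizone and averaged. Cuprizone changes in WT then ranged from -0.2407 to 0.1788 for Gad1, -0.3878 to 0.0542 for Slc32a1, -0.4155 to 0.1440 for Sst, -0.1422 to 0.0096 for Pvalb, -0.5507 to 0.1109 for Vip, -0.5768 to -0.0438 for Gad2 and -0.8954 to -0.0029 for Npy (smallest adjusted p = 0.0630 by limma, for Npy). In AHR CKO they ranged from -0.2012 to 0.05 for Sst, -0.3313 to 0.0327 for Npy, -0.3428 to 0.3082 for Vip, -0.3788 to -0.0912 for Gad1, -0.6932 to -0.2236 for Gad2, -0.4968 to -0.0669 for Slc32a1 and 0.0304 to 0.3144 for Pvalb, none called.

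Rescaling to a common total moved the share of calls that were higher from 45.8% to 21.2% between genotypes in cuprizone, from 43.2% to 24.1% averaged and from 70.8% to 59.0% for cuprizone in AHR CKO, where quantile normalization gave 60.1%. For the interaction it moved from 40% to 25.0% (median-of-ratios) and 20.0% (quantile). The common total shifted the median of all genes between genotypes in cuprizone to -0.11, and Pvalb was higher by 0.67 there. Depth limits Vip most among the markers.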
